A study of Homo sapiens with 15 samples.

Results

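The genes described here are transcriptional targets of the tumour suppressor p53 whose products arrest the cell cycle, repair DNA, adjust metabolism or dampen p53 itself. Of 35 listed genes, 33 were measured by a probe set that carries their symbol alone, out of 19775 genes measured that way, and the other 2 are not analysed here. Each gene was followed at its brightest such probe set, judged by the mean over all 15 arrays. The list was drawn up with earlier results of these data known, so its counts below describe these genes and are not independent evidence of their direction. The arrays held 5 groups of 3 independent cultures each. They were CALDOX cells given 4 µM doxorubicin for 24 h after 3 drug-free passages, untreated CALDOX cells, untreated CAL51 cells, and CAL51 cells kept in 0.4 µM doxorubicin for 24 h or for 48 h. CAL51 is a human line from a triple-negative breast cancer. CALDOX is its resistant offspring, obtained by culture over a long period at 0.4 µM of the drug and routinely kept in it. The labels do not say whether the untreated CALDOX cultures had been taken off doxorubicin. They also do not say whether CALDOX is 1 clone or a population. All values are log2 hybridization intensities.

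Doxorubicin is an anthracycline that traps topoisomerase II on DNA and leaves double-strand breaks. Kinases that sense such breaks stabilize p53, which binds DNA as a tetramer at paired decamer sites and raises transcription of nearby genes. Its targets include CDKN1A, the inhibitor of cyclin-dependent kinases that holds cells in G1 and G2, repair factors such as DDB2 and XPC, sestrins and TIGAR in metabolism, and MDM2 and PPM1D, which switch p53 off again. The gene for p53 itself is not analysed here.

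The epithelial and mesenchymal markers KRT8, KRT18 and VIM lay at percentiles 98.9, 99.9 and 98.1 of all genes by mean level. ESR1 and PGR, the hormone receptor genes, lay at percentiles 61.2 and 18.6 and differed in no comparison. The deposited values carry no detection calls, so no marker is at 0 on this scale. Of 5 listed blood and endothelial markers 4 were measured, and the log2 of their summed intensity ranged over 9.68 to 9.75 in treated CALDOX, 9.66 to 9.82 in untreated CALDOX, 9.64 to 9.71 in untreated CAL51, 9.50 to 9.66 in CAL51 at 24 h and 9.58 to 9.70 at 48 h. With fibroblast markers added, 7 of 8 measured, the ranges were 11.35 to 11.36 in treated CALDOX, 11.07 to 11.14 in untreated CALDOX, 11.41 to 11.49 in untreated CAL51, 11.60 to 11.66 in CAL51 at 24 h and 11.66 to 11.73 at 48 h. Of 17 measured markers, 5 were called lower in untreated CALDOX than in untreated CAL51 and 0 higher. Among all genes, 11.7% were lower and 14.2% higher. The 5 markers were VIM, lower by 1.72, PDGFRB by 1.26, ACTA2 by 0.61, KRT18 by 0.48 and KRT8 by 0.47. In treated against untreated CALDOX, 2 of the 17 were called higher and 2 lower, where 4.82% of all genes rose and 5.50% fell. ACTA2 was 0.82 and VIM 0.49 higher, and CDH2 was 0.35 and ERBB2 0.21 lower. The part of these shifts in the p53 target results was not tested. Arrays of the same group correlated at 0.9928 to 0.9978 over all genes, and arrays of different groups at 0.9788 to 0.9957. In bulk RNA, a change in how many cells respond and a change in RNA per cell cannot be told apart.

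The start-site regions of the members were read from RefSeq (GRCh38.p14, 250 bases before to 50 after the gene start), where 25 members had 36 promoters. The p53 half-site consensus, searched by its name alone, was present at least once in 5 of the 36 member promoters (13.9%) and in 2329 of all 35116 promoters (6.63%). The decamer reads as the same consensus on either strand. The sequences below are shown because they are the member promoters with a match, which is in capitals, each read 5′ to 3′ on the gene's strand.
AEN: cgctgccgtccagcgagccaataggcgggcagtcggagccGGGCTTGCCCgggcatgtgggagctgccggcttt
DDB2: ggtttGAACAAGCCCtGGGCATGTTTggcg
PLK2: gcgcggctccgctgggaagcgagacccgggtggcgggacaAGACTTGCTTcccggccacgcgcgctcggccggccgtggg
RPS27L: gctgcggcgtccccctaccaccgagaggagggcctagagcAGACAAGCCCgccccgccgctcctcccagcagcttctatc
SESN1: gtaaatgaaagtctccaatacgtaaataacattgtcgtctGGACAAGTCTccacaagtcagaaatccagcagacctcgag
These stretches are chr15:88621266-88621339 (AEN, plus strand), chr11:47214974-47215003 (DDB2, plus strand), chr5:58460179-58460258 (PLK2, minus strand), chr15:63157497-63157576 (RPS27L, minus strand) and chr6:109008998-109009077 (SESN1, minus strand). With the gene start counted as +1, the match begins at -34 in AEN, -132 in PLK2, -59 in RPS27L and -49 in SESN1, all upstream of the start. DDB2 is the only member with a pair of matches within a spacer of up to 13 bases, beginning at +6 and +17 inside the transcribed region with 1 base between them. Such pairs occurred in 10 of the 35116 promoters (0.0285%). A match is a stretch of letters and not a measured binding event, and known distal sites such as those of CDKN1A lie outside this window.

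In CAL51 cells, doxorubicin raised nearly the whole set within 24 h. Of the 33 members, 30 rose and 0 fell at 24 h (limma, Benjamini-Hochberg adjusted p under 0.05 over all genes, the rule for every call here), where 5.77% of all genes rose and 4.34% fell. At least 2-fold rises were seen in 14 members, against 0.207% of all genes. The median change of the 33 was 0.83, and that of all genes was -0.03. At 48 h, 32 members rose and 0 fell, where 10.5% of all genes rose and 11.2% fell, and 15 rose at least 2-fold, against 0.536% of all genes. The median member change at 48 h was 0.93, and the median over all genes was -0.02. Every 24 h array lay above every untreated array for 31 members (10.6% of all genes). The heat map of every array gives these shifts gene by gene, and the plot of fold changes gives them with their errors. Both comparisons use the same untreated CAL51 cultures.

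**Figure D1:**
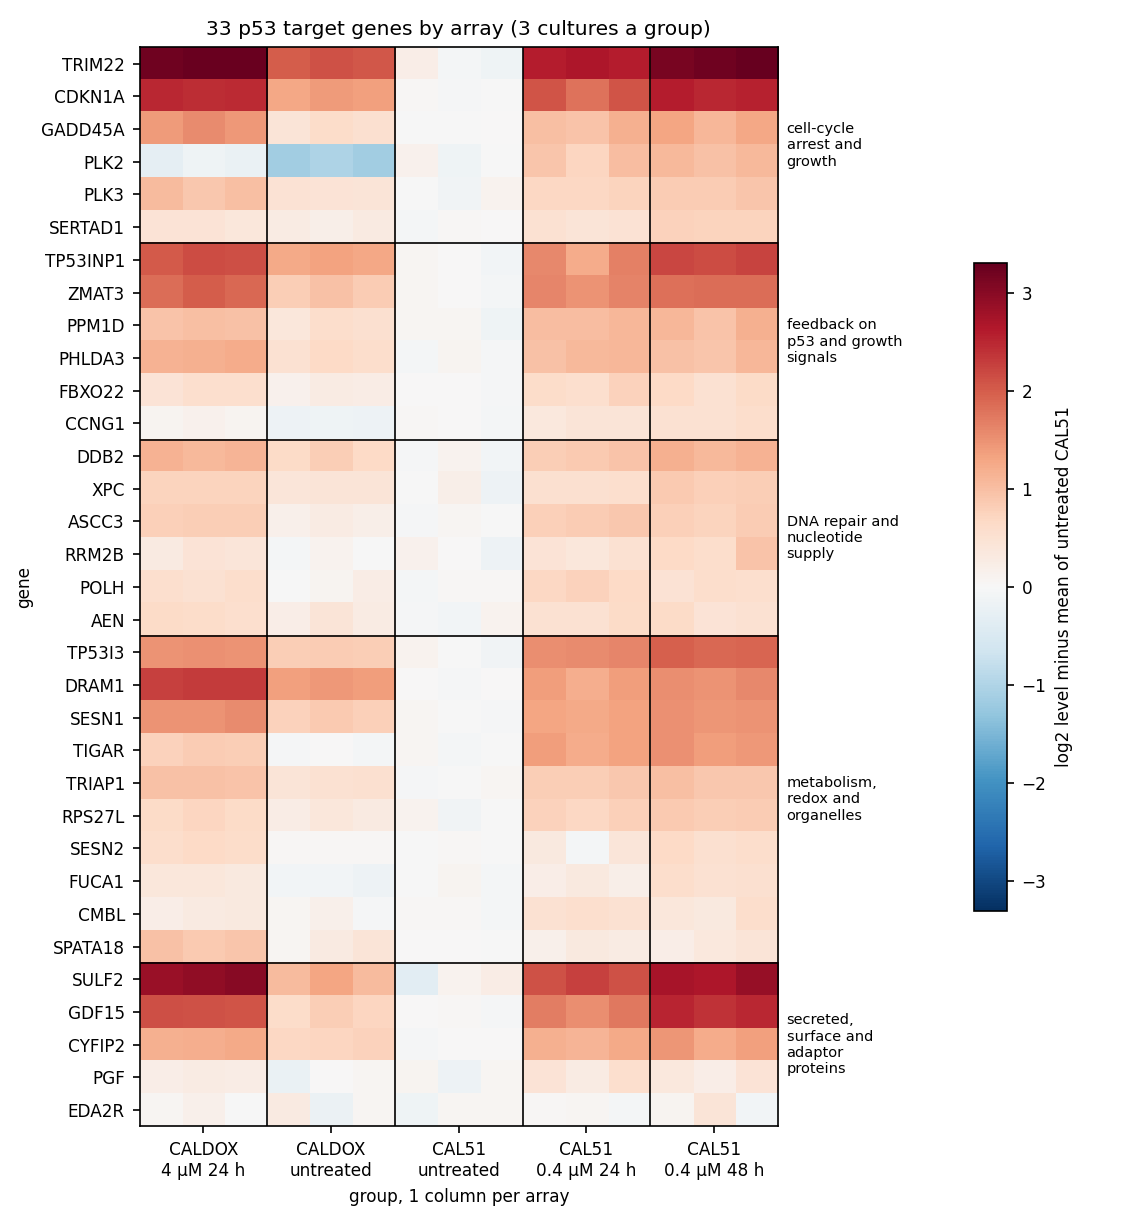
Heat map of the 33 measured p53 target genes (rows, grouped by role) in all 15 arrays (columns, grouped by line and treatment). Colour is the log2 level minus the mean of the 3 untreated CAL51 arrays, from blue (lower) to red (higher). Nearly all rows are red in the treated arrays of both lines, and PLK2 is blue in all 3 untreated CALDOX arrays.

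Among the arrest genes, all 6 measured rose at 24 h (median change 0.96) and all 6 at 48 h (median 1.13). TRIM22, an interferon- and p53-inducible E3 ligase with antiviral activity, had the largest change of the set. Its levels were 6.94, 6.65 and 6.57 in untreated CAL51, 9.30, 9.39 and 9.32 at 24 h, and 9.84, 9.92 and 10.00 at 48 h. The treated arrays all stood more than 2 log2 units above the untreated ones. The change was 2.62 ± 0.08 at 24 h (standard error, as after every change here; 6.14-fold, limma adjusted p = 2.2e-11) and 3.20 ± 0.08 at 48 h (9.18-fold, adjusted p = 1.1e-12).

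CDKN1A, the kinase inhibitor p21, stood at 9.69, 9.61 and 9.64 in untreated CAL51, at 11.71, 11.45 and 11.71 after 24 h, and at 12.24, 12.13 and 12.19 after 48 h. No arrays of any of the 3 groups overlapped, and the second 24 h culture was the lowest of its group. The change was 1.98 ± 0.07 at 24 h (3.94-fold, limma adjusted p = 6.6e-11) and 2.54 ± 0.07 at 48 h (5.83-fold, adjusted p = 1.5e-12). GADD45A, which binds PCNA and p21 and acts in growth arrest and repair, rose by 1.04 ± 0.08 at 24 h (2.05-fold) and by 1.22 at 48 h (2.33-fold). PLK2, a polo-like kinase of the centrosome cycle, measured 10.93, 10.65 and 10.78 in untreated cells, 11.70, 11.49 and 11.81 at 24 h and 11.86, 11.75 and 11.85 at 48 h. It rose by 0.88 ± 0.09 and 1.04 ± 0.09 at these times (1.84- and 2.05-fold, limma adjusted p = 5.0e-06 and 3.4e-07). Its treated arrays overlapped each other but not the untreated ones. PLK3, a stress-activated kinase of the same family, rose by 0.70 and 0.87. SERTAD1, a CDK4-binding transcriptional cofactor, rose by 0.47 and 0.74.

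The genes that feed back on p53 or restrain growth signals also rose as a whole, 6 of 6 at both times, with medians of 1.05 at 24 h and 1.04 at 48 h. ZMAT3, a zinc finger RNA-binding protein and p53 effector, measured 8.85, 8.79 and 8.72 in untreated CAL51, 10.39, 10.28 and 10.43 at 24 h and 10.60, 10.63 and 10.63 at 48 h. It rose by 1.58 ± 0.06 (2.99-fold, limma adjusted p = 4.0e-10) and 1.83 ± 0.06 (3.56-fold, adjusted p = 2.1e-11), and no arrays of the 3 groups overlapped. TP53INP1, a stress protein that promotes p53 activity and autophagy, measured 8.77, 8.71 and 8.61, then 10.28, 9.92 and 10.36, then 10.89, 10.86 and 10.92 in untreated, 24 h and 48 h CAL51. Its change was 1.49 ± 0.09 at 24 h (2.81-fold, limma adjusted p = 2.3e-08) and 2.19 ± 0.09 at 48 h (4.58-fold, adjusted p = 1.2e-10). The second 24 h culture was again the lowest of its group.

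PPM1D, the phosphatase WIP1 that removes activating phosphates from p53 and from checkpoint kinases, rose by 1.05 ± 0.08 and 1.07 (2.06- and 2.11-fold). PHLDA3, which blocks membrane recruitment of AKT, rose by 1.05 ± 0.06 and 1.00 (2.07- and 1.99-fold). FBXO22, an F-box protein that directs degradation of lysine demethylases and methylated p53, rose by 0.64 and 0.59. The smallest change of the group was in CCNG1, cyclin G1, which recruits protein phosphatase 2A to MDM2. It measured 12.01, 11.99 and 11.91 in untreated CAL51, 12.32, 12.40 and 12.39 at 24 h and 12.47, 12.48 and 12.55 at 48 h. These 3 sets of arrays did not overlap, and the changes were 0.39 ± 0.05 (1.31-fold, limma adjusted p = 1.4e-04) and 0.52 ± 0.05 (1.44-fold, adjusted p = 2.6e-06).

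All 6 members grouped here under repair and nucleotide supply rose at both times, with medians of 0.62 at 24 h and 0.76 at 48 h. DDB2, the damage-recognition subunit of nucleotide excision repair whose start region holds the paired match shown above, measured 9.01, 9.16 and 8.94 in untreated CAL51, 9.84, 9.89 and 9.97 at 24 h and 10.20, 10.11 and 10.19 at 48 h. The groups did not overlap, and the change was 0.86 ± 0.07 (1.82-fold, limma adjusted p = 5.6e-07) and 1.13 ± 0.07 (2.18-fold, adjusted p = 1.4e-08). XPC, the other damage sensor of the pathway, rose by 0.54 and 0.82. POLH, the polymerase that copies past ultraviolet lesions, rose by 0.71 and 0.53. RRM2B, the p53-inducible subunit of ribonucleotide reductase, rose by 0.44 and 0.74. ASCC3, a helicase of alkylation repair, rose by 0.83 and 0.79. AEN, an apoptosis-enhancing exonuclease counted in this group, rose by 0.54 and 0.53.

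In the metabolism, redox and organelle group, 8 of 10 members rose at 24 h and 10 of 10 at 48 h, with medians of 0.79 and 0.88. TP53I3, a quinone oxidoreductase linked to oxidative stress, measured 8.74, 8.61 and 8.49 in untreated CAL51, 10.15, 10.17 and 10.22 at 24 h and 10.59, 10.52 and 10.53 at 48 h. The groups were fully separate, and the change was 1.56 ± 0.06 (2.95-fold, limma adjusted p = 2.6e-10) and 1.93 ± 0.06 (3.81-fold, adjusted p = 7.0e-12). TIGAR, a bisphosphatase that lowers glycolytic flux, measured 9.70, 9.58 and 9.63 in untreated cells, 11.01, 10.87 and 10.96 at 24 h and 11.14, 11.01 and 11.08 at 48 h. The highest 24 h and the lowest 48 h array were equal to the digits given, and both groups stood clear of the untreated one, with changes of 1.31 ± 0.06 (2.47-fold, limma adjusted p = 1.1e-09) and 1.44 ± 0.06 (2.71-fold, adjusted p = 1.7e-10).

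DRAM1, a lysosomal membrane protein of autophagy, measured 9.23, 9.19 and 9.24 in untreated CAL51, 10.61, 10.43 and 10.60 at 24 h and 10.75, 10.70 and 10.80 at 48 h. The 3 sets of arrays did not overlap, with changes of 1.33 ± 0.06 (2.51-fold, limma adjusted p = 6.1e-10) and 1.53 ± 0.06 (2.89-fold, adjusted p = 4.6e-11). SESN1, a sestrin that restrains mTORC1 under stress, measured 8.67, 8.60 and 8.56 in untreated cells, 9.90, 9.86 and 9.95 at 24 h and 10.11, 10.06 and 10.08 at 48 h. It rose by 1.29 ± 0.05 (2.45-fold, limma adjusted p = 4.2e-10) and 1.47 ± 0.05 (2.78-fold, adjusted p = 3.5e-11), again without overlap. Its relative SESN2 behaved differently at 24 h: it measured 9.08, 9.12 and 9.08 in untreated cells, 9.42, 9.02 and 9.50 at 24 h, and 9.74, 9.62 and 9.67 at 48 h. The 24 h change of 0.22 ± 0.09 was not called (limma adjusted p = 0.15), and the second 24 h culture lay below all untreated arrays. Without that array the change was 0.37 and was called (limma adjusted p = 8.1e-04), which made 31 members called at 24 h. At 48 h SESN2 rose by 0.58 ± 0.09 (limma adjusted p = 1.8e-04).

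TRIAP1, which regulates mitochondrial lipid transfer, rose by 0.83 and 0.93, and the ribosomal protein paralog RPS27L by 0.75 and 0.84. The lysosomal fucosidase gene FUCA1 rose by 0.25 and 0.53, and its 24 h call was lost without the third untreated array (limma adjusted p = 0.071). CMBL, a hydrolase gene, rose by 0.52 and 0.43 at its brightest probe set. SPATA18, which acts in mitochondrial quality control, had 0.25 ± 0.08 at 24 h (limma adjusted p = 0.066) and rose by 0.33 at 48 h. Values for these last 2 genes differed by probe set and are taken up further on.

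Of the 5 secreted, surface and adaptor proteins, 4 rose at both times, with medians of 1.18 and 1.35. SULF2, an extracellular sulfatase that edits heparan sulfate, measured 6.56, 7.01 and 7.15 in untreated CAL51, 9.01, 9.15 and 9.00 at 24 h and 9.62, 9.57 and 9.78 at 48 h. Its untreated arrays were spread more widely than those of most members, yet the groups did not overlap, and the change was 2.15 ± 0.12 (4.43-fold, limma adjusted p = 1.1e-08) and 2.76 ± 0.12 (6.75-fold, adjusted p = 2.8e-10). GDF15, a secreted stress cytokine of the TGF-beta family, measured 9.47, 9.51 and 9.42 in untreated cells, 11.15, 10.99 and 11.21 at 24 h and 11.98, 11.86 and 11.95 at 48 h. It rose by 1.65 ± 0.07 (3.14-fold, limma adjusted p = 4.2e-10) and 2.46 ± 0.07 (5.51-fold, adjusted p = 1.5e-12), with a clear gap between 24 h and 48 h.

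CYFIP2, which binds the fragile X protein and is part of the WAVE actin-regulating complex, measured 9.35, 9.40 and 9.38 in untreated CAL51, 10.54, 10.50 and 10.63 at 24 h and 10.83, 10.60 and 10.74 at 48 h. The 24 h and 48 h arrays overlapped, and both stood above the untreated arrays, by 1.18 ± 0.06 (2.27-fold, limma adjusted p = 7.1e-09) and 1.35 ± 0.06 (2.55-fold, adjusted p = 7.2e-10). PGF, placental growth factor, rose by 0.43 and 0.34, and its 48 h call was lost without the second untreated array (limma adjusted p = 0.074) or without the third 48 h array. EDA2R, the receptor for ectodysplasin A2, was the exception of the set. It measured 7.36, 7.57 and 7.55 in untreated cells, 7.53, 7.55 and 7.44 at 24 h and 7.58, 7.91 and 7.40 at 48 h, with changes of 0.01 ± 0.13 and 0.14 (limma adjusted p = 0.97 and 0.51). It was the only member below the median of all genes by mean level.

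Between 24 h and 48 h, 14 of the 33 members rose further and 0 fell, where 4.37% of all genes rose and 5.34% fell. The largest were in GDF15 (0.81 ± 0.07, limma adjusted p = 7.6e-06), TP53INP1 (0.70 ± 0.09, adjusted p = 1.8e-04), SULF2 (0.61, adjusted p = 0.0043), TRIM22 (0.58 ± 0.08, adjusted p = 3.5e-04) and CDKN1A (0.56 ± 0.07, adjusted p = 1.5e-04). By role, 3 arrest, 2 feedback, 2 repair, 5 metabolic and 2 secreted, surface or adaptor genes rose. The change between these times was 0.16 in PLK2 (limma adjusted p = 0.32), 0.13 in TIGAR and -0.05 in PHLDA3, and none of these was called. The second 24 h array was the lowest of its group for 18 of the 33 members. It had the lowest spread (SD 1.937) and the highest median (7.033) of the 15 arrays, and its part in these differences was not tested. The count of 14 fell to 8 without the first 48 h array and to 6 in a fit of the compared arrays alone. With arrays left out singly, the call of SESN1 was lost without 13 of the 15 and that of DRAM1 without 7. ZMAT3 lost its call without 4 arrays, DDB2 and XPC without 3 each, and SESN2 without 1.

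**Figure D2:**
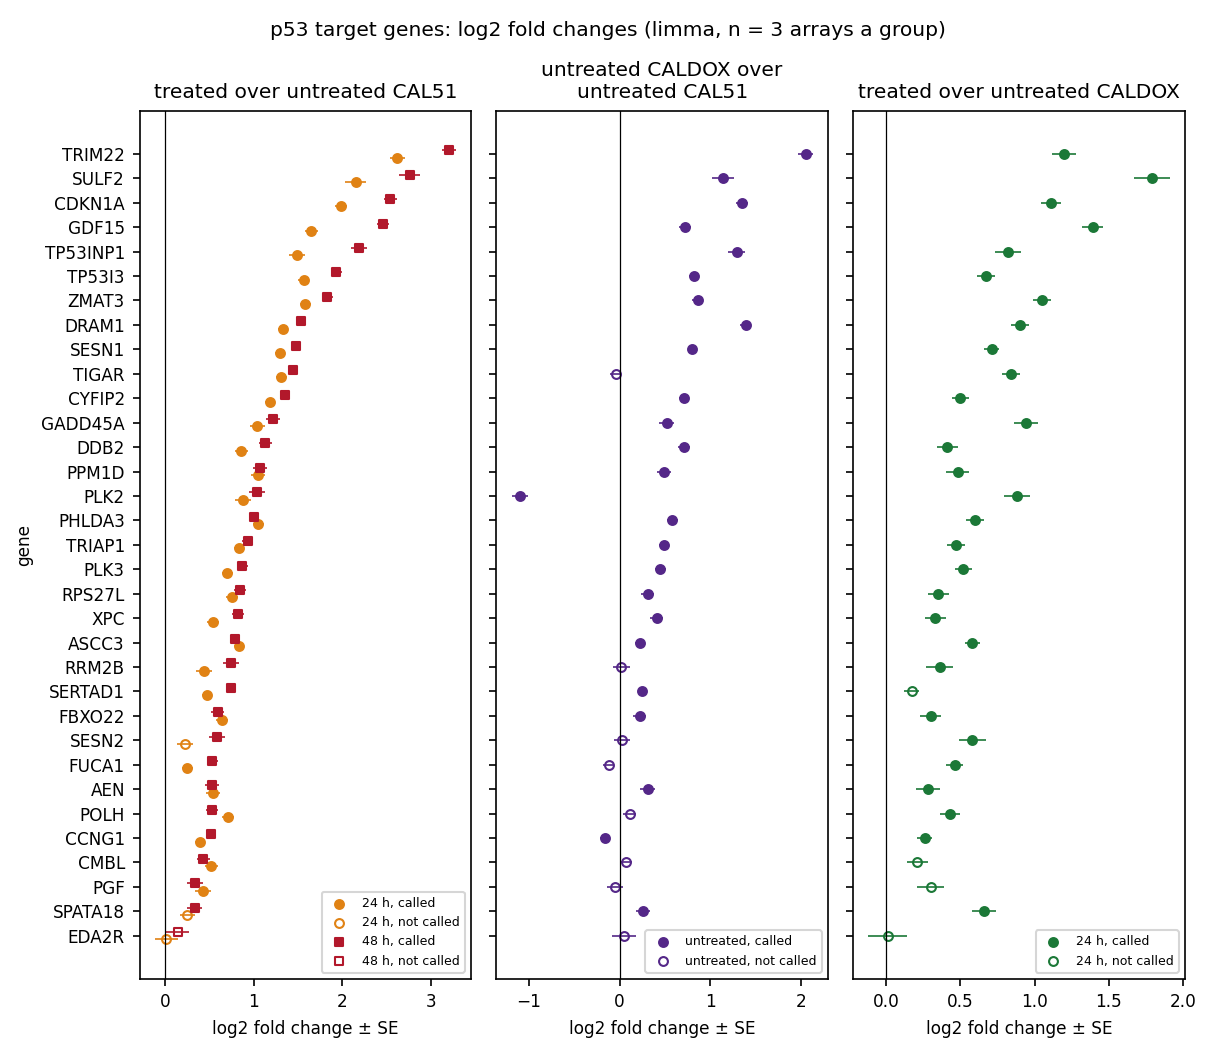
Log2 fold change of each of the 33 genes (rows) with its standard error (bars) in 3 panels, for treated over untreated CAL51 at 24 h and 48 h, untreated CALDOX over untreated CAL51, and treated over untreated CALDOX. Filled symbols passed the test; TRIM22 and SULF2 lie farthest right in CAL51, and PLK2 lies farthest left in the middle panel.

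In untreated CALDOX, most of the set already stood above untreated CAL51. Of the 33 members, 23 were higher and 2 were lower, where 14.2% of all genes were higher and 11.7% were lower. The median member difference was 0.41 and that of all genes was 0. At least 2-fold differences were seen in 5 members that were higher (1.40% of all genes) and in 1 that was lower (1.15%). Every untreated CALDOX array lay above every untreated CAL51 array for 23 members (19.4% of all genes) and below for 3 (17.5%). This comparison shares its untreated CAL51 cultures with both treatment comparisons in CAL51. Since the labels leave the drug state of these CALDOX cultures unstated, line and any recent drug exposure cannot be told apart.

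TRIM22 was the most raised member, at 8.72, 8.83 and 8.76 in untreated CALDOX, against 6.94, 6.65 and 6.57 in untreated CAL51. The arrays were separated by more than 1 log2 unit, and the difference was 2.05 ± 0.08 (4.14-fold, limma adjusted p = 1.2e-11). DRAM1 measured 10.57, 10.64 and 10.61 in untreated CALDOX, against 9.23, 9.19 and 9.24 in untreated CAL51, a difference of 1.39 ± 0.06 (2.61-fold, limma adjusted p = 3.1e-11). CDKN1A measured 10.93, 11.06 and 11.00 in untreated CALDOX, against 9.69, 9.61 and 9.64 in untreated CAL51, a difference of 1.35 ± 0.07 (2.55-fold, limma adjusted p = 3.6e-10). For all of these genes the cultures of each line lay close together and far from those of the other line.

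TP53INP1 measured 9.95, 10.03 and 9.96 in untreated CALDOX, against 8.77, 8.71 and 8.61 in untreated CAL51 (1.29 ± 0.09, 2.44-fold, limma adjusted p = 1.3e-08). SULF2 measured 7.94, 8.22 and 7.96 in untreated CALDOX, against 6.56, 7.01 and 7.15 in untreated CAL51 (1.14 ± 0.12, 2.20-fold, limma adjusted p = 1.9e-06). These 2 genes complete the members higher by at least 2-fold, again without overlap between the lines. ZMAT3, at 9.59, 9.75 and 9.62 in untreated CALDOX against 8.85, 8.79 and 8.72 in untreated CAL51, was higher by 0.86 ± 0.06 (1.82-fold, limma adjusted p = 3.5e-08). TP53I3, at 9.42, 9.45 and 9.43 in untreated CALDOX against 8.74, 8.61 and 8.49 in untreated CAL51, was higher by 0.82 ± 0.06 (1.76-fold, limma adjusted p = 3.3e-08). SESN1, at 9.36, 9.47 and 9.40 in untreated CALDOX against 8.67, 8.60 and 8.56 in untreated CAL51, was higher by 0.80 ± 0.05 (1.74-fold, limma adjusted p = 1.2e-08). The lines did not overlap in any of these 3 genes. GDF15 was at 10.08, 10.29 and 10.18 in untreated CALDOX against 9.47, 9.51 and 9.42 in untreated CAL51 (0.72 ± 0.07, 1.65-fold, limma adjusted p = 6.2e-07). CYFIP2 was at 10.05, 10.08 and 10.13 in untreated CALDOX against 9.35, 9.40 and 9.38 in untreated CAL51 (0.71 ± 0.06, 1.64-fold, limma adjusted p = 2.8e-07). Both genes were clear of overlap too, and DDB2 was higher by 0.71 ± 0.07 (1.63-fold).

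PLK2 and CCNG1 went the other way. PLK2 measured 9.64, 9.77 and 9.63 in untreated CALDOX, against 10.93, 10.65 and 10.78 in untreated CAL51. Its CALDOX arrays lay far below the CAL51 arrays, and the difference was -1.10 ± 0.09 (2.15-fold lower, 95% interval -1.29 to -0.92, limma adjusted p = 5.3e-08). CCNG1 measured 11.81, 11.84 and 11.79 in untreated CALDOX, against 12.01, 11.99 and 11.91 in untreated CAL51. The arrays did not overlap, but the difference was small, at -0.16 ± 0.05 (1.12-fold lower, limma adjusted p = 0.036), and the call was lost without the first untreated CAL51 array (adjusted p = 0.12), without the second (adjusted p = 0.09) or without any of 5 CALDOX arrays. Both genes rose with doxorubicin in CAL51.

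By role, the arrest group had 5 members higher and 1 lower (median 0.48), the feedback group 5 and 1 (median 0.54), the repair group 4 higher (median 0.26), the metabolic group 6 (median 0.28) and the last group 3 (median 0.71). A further block of members that rose in treated CAL51 was not called in untreated CALDOX. TIGAR was at 9.59, 9.64 and 9.56 in untreated CALDOX, against 9.70, 9.58 and 9.63 in untreated CAL51. The lines overlapped, and the difference was -0.04 ± 0.06 (limma adjusted p = 0.73, 95% interval -0.17 to 0.09). RRM2B differed by 0.02 (limma adjusted p = 0.92), SESN2 by 0.03 (adjusted p = 0.88), POLH by 0.11 (adjusted p = 0.31) and PGF by -0.05 (adjusted p = 0.78). FUCA1 had no overlap between the lines and was not called (-0.12 ± 0.06, limma adjusted p = 0.18). Of the smaller calls, FBXO22 (0.22, adjusted p = 0.076 without the third untreated CALDOX array) and SPATA18 (0.26, adjusted p = 0.16 without the same array) were each lost without that or another array of these groups.

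**Figure D3:**
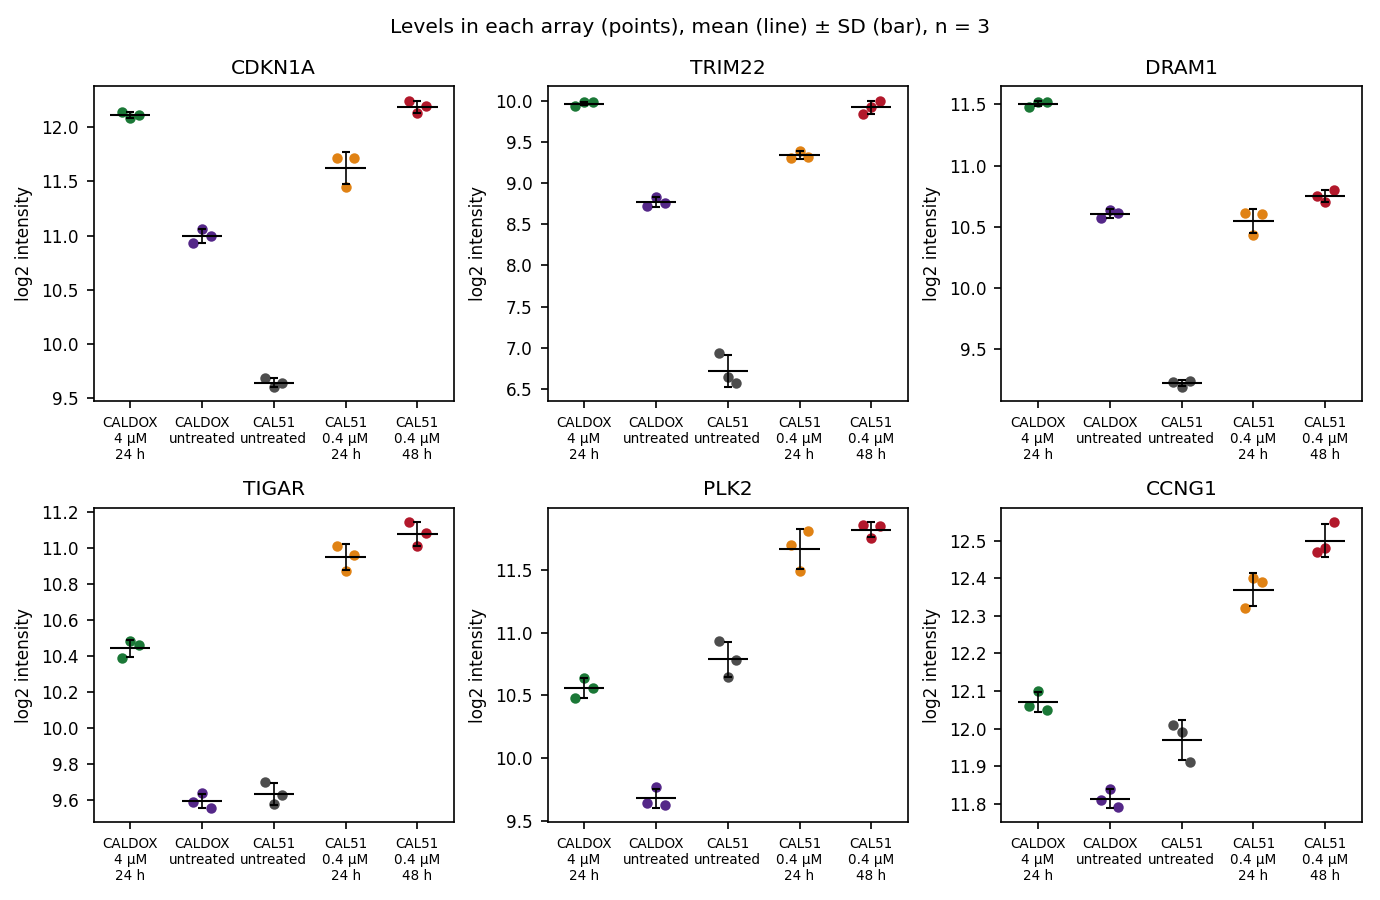
Log2 levels of CDKN1A, TRIM22, DRAM1, TIGAR, PLK2 and CCNG1 in each array (points), with the mean (line) and SD (bar) of the 3 cultures of each group; each panel has its own scale, which does not start at 0. In untreated CALDOX, CDKN1A, TRIM22 and DRAM1 stand above untreated CAL51, TIGAR overlaps with it, and PLK2 and CCNG1 stand below it.

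The level in untreated CALDOX was lower than in CAL51 treated for 48 h for most members. Of the 33, 30 were lower and 0 were higher, where 11.8% of all genes were lower and 16.3% higher, and 7 were lower by at least 2-fold (1.64% of all genes). The median member difference was -0.58, and the median over all genes was 0.03. For 31 members every untreated CALDOX array lay below every 48 h array (15.8% of all genes). PLK2 differed most, by -2.14 ± 0.09 (4.41-fold lower, limma adjusted p = 2.0e-11), followed by GDF15 (-1.74 ± 0.07, 3.35-fold, adjusted p = 1.7e-11), SULF2 (-1.62, 3.07-fold, adjusted p = 3.1e-08) and TIGAR (-1.48 ± 0.06, 2.79-fold, adjusted p = 2.4e-11). CDKN1A was lower by 1.19 ± 0.07 (2.29-fold, limma adjusted p = 1.6e-09) and TRIM22 by 1.15 ± 0.08 (2.22-fold, adjusted p = 1.3e-08). DRAM1, although strongly raised by doxorubicin, stood near its 48 h level in untreated CALDOX, with a difference of -0.14 ± 0.06 that was not called (limma adjusted p = 0.08). Without the second 24 h CAL51 array it was called (adjusted p = 0.039). SPATA18 (-0.07, adjusted p = 0.59) and EDA2R (-0.08) were the other members not called, and AEN (-0.22, adjusted p = 0.04) was not called without the first 48 h array (adjusted p = 0.18).

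In CALDOX cells given 4 µM doxorubicin for 24 h, most of the set was higher than in untreated CALDOX. The treated cultures had gone through drug-free passages, and the labels do not say whether the untreated ones had. The untreated level is therefore not known to be the level before treatment. Rises and falls in CALDOX are relative to it, and treatment and any difference in drug-free passages cannot be told apart in them. Of the 33 members, 29 rose and 0 fell, where 4.82% of all genes rose and 5.50% fell. At least 2-fold rises were seen in 5 members, against 0.101% of all genes. The median member change was 0.52, and that of all genes was -0.01. Every treated CALDOX array lay above every untreated CALDOX array for 32 members (13.7% of all genes). The groups compared here share no arrays with those of the 24 h comparison in CAL51. Both tests take their spread from all arrays fitted together, however, so their calls are not independent. Members called higher in both numbered 27, which is 27 of 30 in CAL51 and 27 of 29 in CALDOX. The share of all genes called higher in both is not given here.

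SULF2 changed most, at 9.76, 9.83 and 9.91 in treated CALDOX, against 7.94, 8.22 and 7.96 in untreated CALDOX. The arrays were more than 1 log2 unit apart, and the change was 1.79 ± 0.12 (3.46-fold, limma adjusted p = 2.0e-07). GDF15 measured 11.60, 11.57 and 11.54 in treated CALDOX, against 10.08, 10.29 and 10.18 in untreated CALDOX, a change of 1.39 ± 0.07 (2.61-fold, limma adjusted p = 1.7e-08). TRIM22 measured 9.94, 9.98 and 9.98 in treated CALDOX, against 8.72, 8.83 and 8.76 in untreated CALDOX, a change of 1.20 ± 0.08 (2.29-fold, limma adjusted p = 1.9e-07). These 2 genes were likewise fully separated by treatment. CDKN1A measured 12.14, 12.08 and 12.11 in treated CALDOX, against 10.93, 11.06 and 11.00 in untreated CALDOX (1.11 ± 0.07, 2.16-fold, limma adjusted p = 1.3e-07). ZMAT3 measured 10.63, 10.79 and 10.67 in treated CALDOX, against 9.59, 9.75 and 9.62 in untreated CALDOX (1.05 ± 0.06, 2.07-fold, limma adjusted p = 1.2e-07). With these, the 5 members that rose at least 2-fold included 1 kinase inhibitor, 2 secreted factors, 1 E3 ligase and 1 RNA-binding protein.

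Both genes that were lower in untreated CALDOX, PLK2 and CCNG1, rose as well, as did TIGAR, whose untreated levels overlapped between the lines. PLK2 measured 10.48, 10.64 and 10.56 in treated CALDOX, against 9.64, 9.77 and 9.63 in untreated CALDOX, and rose by 0.88 ± 0.09 (1.84-fold, limma adjusted p = 7.9e-06). Its treated CALDOX arrays lay below every one of the untreated CAL51 arrays listed above. TIGAR measured 10.39, 10.48 and 10.46 in treated CALDOX, against 9.59, 9.64 and 9.56 in untreated CALDOX (0.84 ± 0.06, 1.79-fold, limma adjusted p = 3.6e-07). CCNG1 measured 12.06, 12.10 and 12.05 in treated CALDOX, against 11.81, 11.84 and 11.79 in untreated CALDOX (0.26 ± 0.05, limma adjusted p = 0.0045). Treated and untreated arrays were separate in both genes.

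DRAM1 reached its highest level of any group, 11.48, 11.52 and 11.52 in treated CALDOX, against 10.57, 10.64 and 10.61 in untreated CALDOX (0.90 ± 0.06, 1.87-fold, limma adjusted p = 1.5e-07). TP53INP1 measured 10.73, 10.84 and 10.83 in treated CALDOX, against 9.95, 10.03 and 9.96 in untreated CALDOX (0.82 ± 0.09, 1.76-fold, limma adjusted p = 2.3e-05). GADD45A, at 11.19, 11.36 and 11.21 in treated CALDOX against 10.21, 10.40 and 10.32 in untreated CALDOX, rose by 0.94 ± 0.08 (1.92-fold, limma adjusted p = 1.4e-06). None of these 3 genes had overlapping arrays. SESN1 measured 10.10, 10.10 and 10.17 in treated CALDOX, against 9.36, 9.47 and 9.40 in untreated CALDOX (0.71 ± 0.05, 1.64-fold, limma adjusted p = 7.4e-07). TP53I3 measured 10.10, 10.12 and 10.09 in treated CALDOX, against 9.42, 9.45 and 9.43 in untreated CALDOX (0.67 ± 0.06, 1.59-fold, limma adjusted p = 4.9e-06). CYFIP2 measured 10.56, 10.57 and 10.63 in treated CALDOX, against 10.05, 10.08 and 10.13 in untreated CALDOX (0.50 ± 0.06, 1.42-fold, limma adjusted p = 8.8e-05). SESN2, called at 48 h but not at 24 h in CAL51, was at 9.67, 9.74 and 9.71 in treated CALDOX, against 9.12, 9.12 and 9.13 in untreated CALDOX. It rose by 0.58 ± 0.09 (limma adjusted p = 4.9e-04) with no overlap.

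By role, 5 of 6 arrest genes (median 0.91), 6 of 6 feedback genes (median 0.54), 6 of 6 repair genes (median 0.38), 9 of 10 metabolic genes (median 0.62) and 3 of 5 in the last group (median 0.50) rose in CALDOX. The genes of the repair group, AEN included, rose by 0.58 (ASCC3), 0.43 (POLH), 0.41 (DDB2), 0.36 (RRM2B), 0.33 (XPC) and 0.28 (AEN). The RRM2B call was lost without the second treated CALDOX array (limma adjusted p = 0.08) and without 3 other CALDOX arrays, and the AEN call without the first untreated CALDOX array (adjusted p = 0.11) and without 3 others. SERTAD1 (0.17 ± 0.05, limma adjusted p = 0.068), CMBL (0.21 ± 0.07, adjusted p = 0.089), PGF (0.30 ± 0.09, adjusted p = 0.052) and EDA2R (0.01, adjusted p = 0.98) were not called. SERTAD1, CMBL and PGF had been called in CAL51 at 24 h. PGF was called in CALDOX without the second CAL51 24 h array (adjusted p = 0.028), and likewise without either of 2 other CAL51 arrays.

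Across the 5 groups, the highest mean fell in CAL51 at 48 h for 16 members, in treated CALDOX for 12 and in CAL51 at 24 h for 5. The lowest mean fell in untreated CAL51 for 28 members and in untreated CALDOX for the other 5, which were CCNG1, PLK2, TIGAR, FUCA1 and PGF. The treated CALDOX mean was above the CAL51 24 h mean for 20 of the 33. These counts order the group means and carry no test.

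The 24 h changes of the lines were compared directly as the difference between them, CALDOX minus CAL51. The doses differed by design (4 µM in CALDOX and 0.4 µM in CAL51), and the untreated levels differed too. Line, dose, untreated level and any difference in drug-free passages within CALDOX cannot be told apart in this difference. The log2 change was smaller in CALDOX for 29 members and larger for 4, which were SESN2, SPATA18, FUCA1 and EDA2R. The difference was called for 14 members, all smaller in CALDOX, where it was called lower for 0.855% and higher for 0.576% of all genes. The median difference of the 33 was -0.32, and that of all genes was 0.01. Without the first treated CALDOX array 9 members were called.

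**Figure D4:**
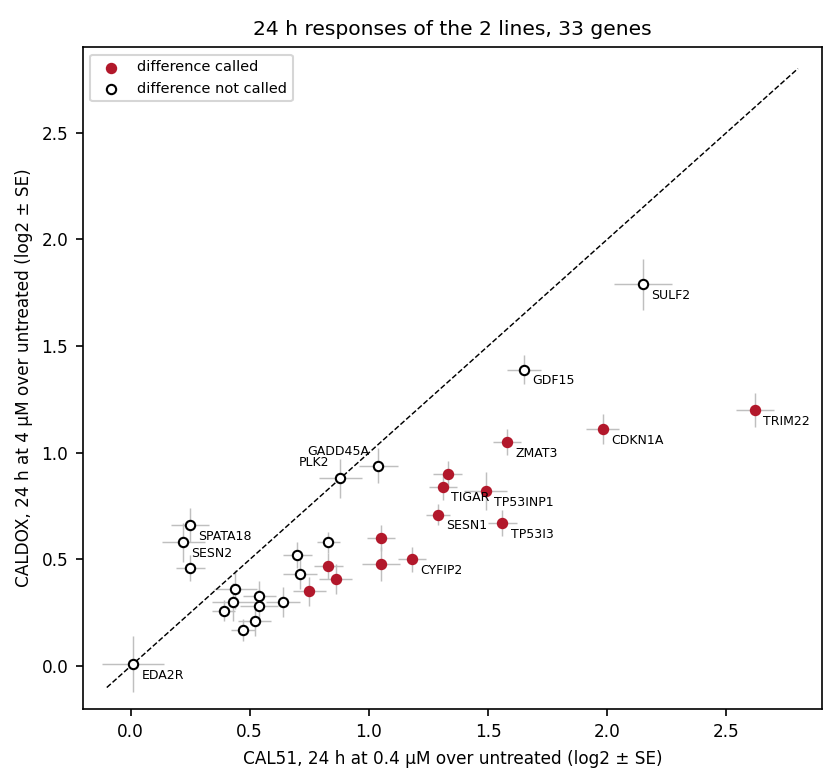
Log2 change of 33 p53 target genes after 24 h in doxorubicin in CALDOX (4 µM, vertical axis) against CAL51 (0.4 µM, horizontal axis), with standard errors (bars). Red points are the 14 genes whose difference passed the test, and the dashed line marks equal change; PLK2 and GADD45A lie near the line, and TRIM22 and CDKN1A lie well below it.

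TRIM22 differed most. Its change was 1.20 in CALDOX and 2.62 in CAL51, a difference of -1.42 ± 0.11 (2.68-fold smaller, limma adjusted p = 1.6e-05), and it was the only member past 2-fold. TP53I3 followed with 0.67 in CALDOX and 1.56 in CAL51 (difference -0.89 ± 0.09, limma adjusted p = 8.8e-05), and CDKN1A with 1.11 in CALDOX and 1.98 in CAL51 (-0.87 ± 0.10, adjusted p = 2.7e-04). Each of these genes was already called higher in untreated CALDOX. Next came CYFIP2 (-0.68 ± 0.09, limma adjusted p = 7.9e-04), TP53INP1 (-0.67 ± 0.13, adjusted p = 0.012), SESN1 (-0.58 ± 0.08, adjusted p = 8.9e-04), PPM1D (-0.57 ± 0.11, adjusted p = 0.012) and ZMAT3 (-0.53 ± 0.09, adjusted p = 0.0067). TIGAR had a smaller change in CALDOX too (-0.46 ± 0.09, limma adjusted p = 0.011), although its untreated levels in the lines overlapped. DDB2 (-0.46 ± 0.10, adjusted p = 0.027), PHLDA3 (-0.45 ± 0.09, adjusted p = 0.018), DRAM1 (-0.43 ± 0.08, adjusted p = 0.014), RPS27L (-0.40 ± 0.09, adjusted p = 0.044) and TRIAP1 (-0.36 ± 0.08, adjusted p = 0.034) completed the 14. Each of these last 5 lost its call without the first treated CALDOX array. DRAM1 lost it there only (adjusted p = 0.052), and the other 4 lost it without 7 to 12 of the 15 arrays taken singly.

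For several strongly responding genes the difference was not called. PLK2 differed by 0.00 ± 0.12 (limma adjusted p = 1, 95% interval -0.26 to 0.26) and GADD45A by -0.09 ± 0.11 (adjusted p = 0.84, interval -0.32 to 0.14). GDF15 differed by -0.27 ± 0.10 (limma adjusted p = 0.27, interval -0.47 to -0.06) and SULF2 by -0.36 ± 0.17 (adjusted p = 0.45, interval -0.72 to 0.01). The unadjusted interval of GDF15 lay wholly below 0, and those of PLK2, GADD45A and SULF2 included 0. SESN2 had a change of 0.58 in CALDOX and 0.22 in CAL51, a difference of 0.36 ± 0.13 that was not called (limma adjusted p = 0.24).

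For 16 of the 33 members a single probe set was available, and for the other 17 there were several. None of the members had another probe set called in the opposite direction. In 2 genes, chosen here after their values were seen, the brightest probe set showed far smaller changes than another one, and adjusted p-values for single probe sets come from the fit over all probe sets. SPATA18 at probe set 229331_at measured 9.10, 9.31 and 9.23 in treated CALDOX, 7.92, 8.00 and 7.96 in untreated CALDOX, 5.37, 5.62 and 5.01 in untreated CAL51, 7.58, 7.26 and 7.69 at 24 h and 8.09, 8.11 and 8.33 at 48 h. At its brightest, 230723_at, it measured 8.45, 8.34 and 8.41 in treated CALDOX, 7.55, 7.79 and 7.90 in untreated CALDOX, 7.50, 7.49 and 7.46 in untreated CAL51, 7.66, 7.80 and 7.76 at 24 h and 7.69, 7.84 and 7.92 at 48 h. The first probe set separated all treated from all untreated arrays within each line, and the second did so with far smaller steps.

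The change of SPATA18 at 229331_at was 2.18 ± 0.13 at 24 h in CAL51 (limma adjusted p = 2.1e-08), 2.85 ± 0.13 at 48 h (adjusted p = 3.8e-10) and 1.25 ± 0.13 in CALDOX (adjusted p = 1.7e-05), and the difference of untreated CALDOX over untreated CAL51 was 2.63 ± 0.13 (adjusted p = 1.6e-10). At 230723_at the 24 h changes were 0.25 in CAL51 and 0.66 ± 0.08 in CALDOX, and the difference of responses, CALDOX minus CAL51, was 0.40 ± 0.12 (not called, limma adjusted p = 0.12). At 229331_at that difference was -0.93 ± 0.19 (adjusted p = 0.023), so its sign depended on the probe set.

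CMBL at 227522_at measured 11.66, 11.60 and 11.75 in treated CALDOX, 10.84, 10.88 and 10.84 in untreated CALDOX, 9.30, 9.41 and 9.25 in untreated CAL51, 10.78, 10.65 and 10.80 at 24 h and 11.09, 11.07 and 11.20 at 48 h. At its brightest, 234981_x_at, it measured 11.20, 11.30 and 11.32 in treated CALDOX, 11.07, 11.16 and 10.96 in untreated CALDOX, 11.02, 11.03 and 10.93 in untreated CAL51, 11.50, 11.55 and 11.50 at 24 h and 11.38, 11.31 and 11.58 at 48 h. The untreated lines overlapped at 234981_x_at and were more than 1 log2 unit apart at 227522_at, where untreated CALDOX was higher by 1.53 ± 0.07 (limma adjusted p = 5.1e-11). At 227522_at the change at 24 h in CAL51 was 1.42 ± 0.07, that in CALDOX was 0.82, and their difference was -0.60 ± 0.10 (limma adjusted p = 0.006). Another, dim probe set, 230995_at, had -0.17 at 24 h in CAL51 (adjusted p = 0.41). SESN2 too was called at 24 h in CAL51 at another probe set, 223196_s_at (0.46, adjusted p = 1.0e-04). FBXO22 at the dim probe set 1559214_at rose by 1.54 ± 0.20 at 24 h in CAL51 (limma adjusted p = 7.2e-05), against 0.64 at its brightest. Some calls were absent at a dimmer probe set. The difference of responses was -0.25 for CYFIP2 at 220999_s_at (limma adjusted p = 0.5), against -0.68. For PPM1D at 230330_at it was -0.22 (adjusted p = 0.61), against -0.57. PPM1D there differed by -0.15 between the untreated lines (adjusted p = 0.32), against 0.49. The difference of responses for TP53INP1 at 244721_at was -0.12 (limma adjusted p = 0.8), against -0.67. For RPS27L at 222487_s_at it was 0.31 (adjusted p = 0.41), against -0.40, and its 24 h change in CAL51 there was -0.02. ZMAT3 was called at 219628_at (-0.56, adjusted p = 0.021). It was not called at 227221_at (-0.45), 225725_at (-0.56) or 1555609_a_at (-0.39). PHLDA3 was called at 235534_at too (-0.70, adjusted p = 0.0084).

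**Figure D5:**
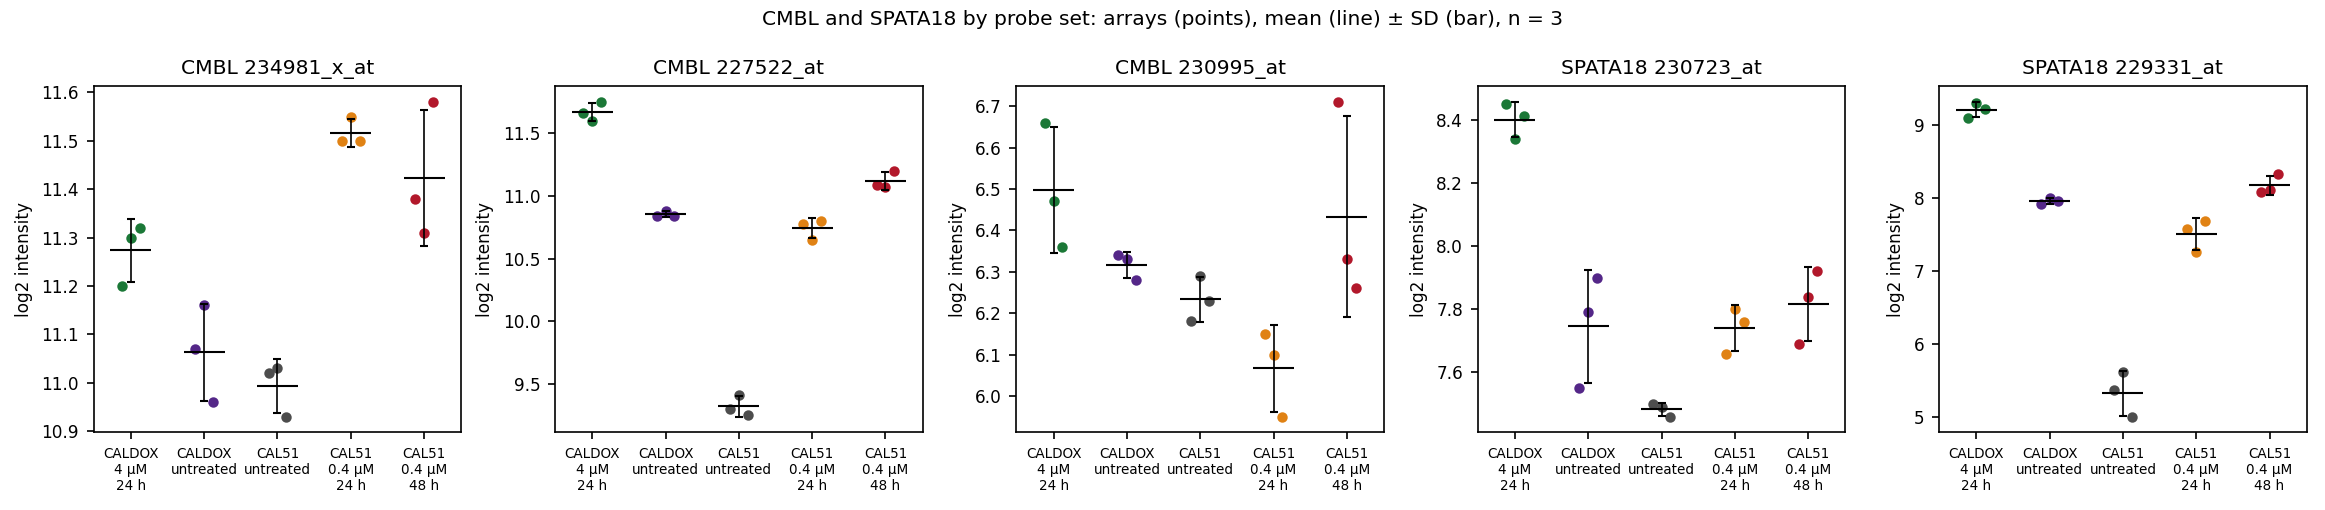
Log2 levels of CMBL at 3 probe sets and of SPATA18 at 2 probe sets in each array (points), with the mean (line) and SD (bar) of the 3 cultures of each group; each panel has its own scale, which does not start at 0. Untreated CALDOX stands far above untreated CAL51 at CMBL 227522_at and SPATA18 229331_at, and close to it at CMBL 234981_x_at and SPATA18 230723_at.

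The other genes of the pathway were followed in lists of their own. Of 34 other p53 targets, mostly in apoptosis and signalling, 32 were measured. In CAL51, 21 rose and 0 fell at 24 h (median 0.51), and 23 rose and 0 fell at 48 h (median 0.59). In untreated CALDOX 15 were higher and 5 lower than in untreated CAL51 (median 0.20), and with doxorubicin in CALDOX 21 rose and 0 fell (median 0.29). Of all genes, 5.77% rose and 4.34% fell at 24 h in CAL51, and 10.5% rose and 11.2% fell at 48 h. In untreated CALDOX 14.2% of all genes were higher and 11.7% lower, and with doxorubicin in CALDOX 4.82% rose and 5.50% fell. FAS, the death receptor, rose by 2.38 ± 0.12 at 24 h and 2.64 at 48 h in CAL51 and by 1.41 in CALDOX, and was 2.15 higher in untreated CALDOX than in untreated CAL51. CROT, a peroxisomal carnitine acyltransferase, rose by 1.79 and 2.22 in CAL51 and by 0.99 in CALDOX, and was 2.27 higher in untreated CALDOX than in untreated CAL51. KITLG, the ligand of the KIT receptor, rose by 1.50 and 1.57 in CAL51 and was 4.60 ± 0.10 higher in untreated CALDOX than in untreated CAL51 (limma adjusted p = 1.1e-14). Its change in CALDOX, 0.26, was not called (limma adjusted p = 0.12), and its untreated CALDOX level was 3.02 above CAL51 at 48 h. SESN3, the sestrin also driven by FOXO factors, was 1.01 lower in untreated CALDOX and rose by 1.02 in CALDOX with doxorubicin.

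For the lists that follow, the shares of all genes were 5.77% higher and 4.34% lower at 24 h in CAL51, 10.5% and 11.2% at 48 h, and 4.82% and 5.50% in CALDOX, and no difference between a list and all genes was tested. Among 19 of 21 listed regulators of p53, 2 rose and 3 fell at 24 h in CAL51, 1 rose and 7 fell at 48 h, and 1 rose and 4 fell in CALDOX. MDM2, the ubiquitin ligase that degrades p53 and is itself a target, stood at 10.29, 10.40 and 10.32 in treated CALDOX, 9.51, 9.87 and 9.71 in untreated CALDOX, 9.83, 9.66 and 9.65 in untreated CAL51, 10.98, 10.80 and 11.12 at 24 h and 11.16, 11.04 and 11.18 at 48 h. The untreated lines overlapped, at a difference of -0.02 ± 0.09 (limma adjusted p = 0.93, 95% interval -0.22 to 0.18). MDM2 rose by 1.26 ± 0.09 at 24 h (limma adjusted p = 2.8e-07) and 1.41 ± 0.09 at 48 h in CAL51 (adjusted p = 3.4e-08). In CALDOX it rose by 0.64 ± 0.09 (adjusted p = 3.1e-04), and the difference of responses was called (-0.62 ± 0.13, adjusted p = 0.028). MDM4, its partner in restraining p53, had -0.01 at 24 h in CAL51 (limma adjusted p = 0.94) and fell by 0.32 at 48 h (adjusted p = 0.0052). Neither its difference between the untreated lines (-0.12, adjusted p = 0.3) nor its change in CALDOX (0.07, adjusted p = 0.7) was called. The checkpoint kinase gene CHEK1 fell by 0.36 at 24 h and 0.81 at 48 h in CAL51 and by 0.65 in CALDOX. HIPK2, a kinase that phosphorylates p53, was 1.25 ± 0.09 higher in untreated CALDOX than in untreated CAL51.

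Other genes of the repair pathways were followed beside the members. Of 23 measured nucleotide excision repair genes that are not members, 3 rose and 2 fell at 24 h in CAL51, 2 rose and 4 fell at 48 h, and 1 rose and 4 fell in CALDOX, counts to be read against the same shares of all genes. Those that rose included GTF2H3 (0.35 at 24 h) and GTF2H5 (0.25 at 24 h and 0.39 at 48 h), subunits of the repair helicase complex TFIIH. RPA3, a subunit of the single-strand binding protein, fell by 0.24 and 0.41 in CAL51 and by 0.35 in CALDOX. Of 19 measured translesion and nucleotide genes, 2 rose and 3 fell at 24 h in CAL51, 1 rose and 8 fell at 48 h, and 1 rose and 7 fell in CALDOX. SAMHD1, a dNTP hydrolase, rose by 0.54 and 1.03 in CAL51. RRM2, the S-phase counterpart of the member RRM2B, fell by 0.17 and 0.56 in CAL51 and by 0.39 in CALDOX. DCK, deoxycytidine kinase, fell by 0.43 and 0.72 in CAL51 and by 0.41 in CALDOX.

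Of 22 measured genes of G1 control, 3 rose and 3 fell at 24 h in CAL51, 4 rose and 7 fell at 48 h, and 2 rose and 2 fell in CALDOX. The cyclin genes CCND1 (0.66 at 48 h), CCND2 (0.42 and 0.58) and CCNE1 (0.32 at 24 h) rose in CAL51, and CCNE2 fell by 1.04 at 48 h. CDKN1B, a CDK inhibitor gene, changed by -0.46 and LIN9 by -0.39 at 24 h in CAL51, both called lower. Of 46 measured paralogs of the members, 5 rose and 5 fell at 24 h in CAL51, 12 rose and 6 fell at 48 h, and 5 rose and 3 fell in CALDOX. TRIM5, the closest relative listed for TRIM22, rose by 1.14 ± 0.15 and 1.44 in CAL51 and by 0.52 in CALDOX, and was 1.31 higher in untreated CALDOX than in untreated CAL51. PLK1 and PLK4, mitotic and centriole kinases, fell while PLK2 and PLK3 rose. PLK1 fell by 0.29 and 0.69 in CAL51 and by 0.41 in CALDOX, and PLK4 fell by 0.36 and 0.90 in CAL51 and by 0.53 in CALDOX. CCNG2, cyclin G2, rose by 1.00 ± 0.13 at 48 h in CAL51. BTG3, an antiproliferative relative, rose by 0.35 and 0.45 in CAL51 and by 0.78 in CALDOX, and its difference of responses was called in the direction opposite to the members' (0.43).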

How the data were processed

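Total RNA was labelled as biotinylated cRNA and hybridized to Affymetrix arrays, 1 for each of 15 cultures, per the labels' protocols. The deposited log2 values of 54675 probe sets were made by the authors with RMA, which corrects background, quantile normalizes and summarizes probes, per the submitters' processing notes (RMA version: not given in the sources used here). Their log base was inferred from the range of the values, 3.083 to 14.762. Scanner files were not used here, and nothing was renormalized. The platform annotation gave 1 gene symbol to 41097 probe sets, several to 1801 and none to 11777. Controls (62 probe sets) were dropped. Of 41091 single-symbol probe sets, 41037 matched the RefSeq gene table by ID and 0 symbols needed updating. Each of 19775 genes was read at its brightest probe set.

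Group means were fitted to all 15 arrays with limma 3.58.1 (lmFit, eBayes) in R 4.3.3, with 2-sided tests and Benjamini-Hochberg adjustment over all genes at 0.05, without a filter on dim genes. The step was tested on simulated data. Precision is set by the small number of arrays, 3 a group, and a dim probe set can understate a change. Among the members, some dimmer probe sets showed larger changes than the brightest one. The labels call the replicates separate biological samples. Deviations from group means correlated at -0.46 to 0.46 (median 0.005) between arrays of the same replicate number, over 0.1 in 8 of 30 pairs. Arrays of other numbers correlated at -0.46 to 0.47 (median 0.015), over 0.1 in 17 of 60 pairs. Between CAL51 at 24 h and at 48 h alone, pairs of the same number were at 0.06, 0.40 and 0.46. The other pairs of these groups ran from -0.41 to 0.07. Whether the numbers pair the cultures was not settled, and the main fit does not pair them.

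The members and the other gene lists were chosen with earlier results of these data known. Per-array values are given for the 12 members with the largest change in any comparison, for members called against the majority, and for the 6 largest called differences of responses, plus GADD45A, DDB2, SESN2, EDA2R, SPATA18 and CMBL, picked after their values were seen. From each other list up to 4 called genes a comparison were eligible, with MDM2 and MDM4 always. Alternatives covered the arrays in the fit, quantile normalization, array weights, the variance prior, array spread, a filter on dim genes, the choice of probe set, a replicate block and leaving out each array.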

Additional observations from a re-analysis of the deposited data

Results flagged for a closer look

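The following results had a 24 h response that differed between the lines, by the test of the difference itself (CALDOX at 4 µM minus CAL51 at 0.4 µM, limma, adjusted over all genes). The doses differ, and no rule for outlying samples was applied to groups of 3 cultures. The effect of leaving out each array is given with the results and under the processing. Among the members, the differences were -1.42 in TRIM22, -0.89 in TP53I3, -0.87 in CDKN1A, -0.68 in CYFIP2, -0.67 in TP53INP1, -0.58 in SESN1, -0.57 in PPM1D, -0.53 in ZMAT3, -0.46 in TIGAR, -0.46 in DDB2, -0.45 in PHLDA3, -0.43 in DRAM1, -0.40 in RPS27L and -0.36 in TRIAP1.

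Among the other genes followed, the change was smaller in CALDOX for KITLG (-1.24, adjusted p = 2.6e-04), the death receptor genes FAS (-0.97, adjusted p = 0.0056) and TNFRSF10B (-0.51, adjusted p = 0.0039), CROT (-0.81, adjusted p = 2.5e-04), the apoptosis effector BAX (-0.69, adjusted p = 0.0016) and MDM2 (-0.62, adjusted p = 0.028). It was larger in CALDOX for BTG3 (0.43, adjusted p = 0.01). UVSSA, a factor of transcription-coupled repair, went in opposite directions. Its change was -0.23 in CAL51, called lower, and 0.22 in CALDOX, called higher (difference 0.44, limma adjusted p = 0.018).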

How the results depend on the processing

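Leaving out 1 array at a time, the number of members called ranged over 29 to 31 (24 h) and 31 to 32 (48 h) in CAL51 against untreated, 8 to 14 (48 h against 24 h), 22 to 25 and 29 to 31 (untreated CALDOX against untreated CAL51 and against CAL51 at 48 h), 27 to 30 (treated against untreated CALDOX) and 9 to 15 (difference of responses). In the same order of comparisons, all genes called ranged over 1355 to 2117, 3507 to 4754, 1236 to 1951, 4341 to 5550, 4682 to 5977, 1341 to 2338 and 161 to 353. The fit of the compared arrays alone estimates the spread from fewer arrays. In it, 6 in place of 14 members were called between 48 h and 24 h. All genes called then numbered 565 in place of 1920 there and 870 in place of 1999 at 24 h in CAL51. With array weights they numbered 3200 at 24 h in CAL51, 4961 in place of 2041 in CALDOX and 1231 in place of 283 for the difference of responses. With array spread as a covariate they numbered 3119 at 24 h (1434 higher, 1685 lower, against 1141 and 858 without it), 3054 between 48 h and 24 h, and 586 for the difference. For the difference, a further quantile normalization gave 427 and the trended robust prior 470. Probe set choice turned the sign of CMBL between 48 h and 24 h (0.22 with the mean of its probe sets and 0.38 with the most variable one, against -0.09), of ASCC3 between the untreated lines (-0.13 with the most variable, against 0.22) and of SPATA18 in the difference of responses (-0.93 with the most variable, against 0.40). With the replicate block, 11 in place of 14 members were called in the difference of responses, without DDB2, TRIAP1 and RPS27L (adjusted p = 0.052, 0.061 and 0.079), and 30 in CALDOX. The cause of these shifts was not tested.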
